A study of Mus musculus with 12 samples.

Results

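A group of 9 B cell and immunoglobulin genes was followed across 12 mouse breast tumours: Ighm, Igkc, Cd79a, Cd79b, Ms4a1, Fcrla, Cr2, Fcer2a and Jchain. They are 9 of the 25116 rows of the count table, and each was found there by its symbol. They were picked from these same counts because 3 control tumours stood out in them. Their levels and their difference between the groups are therefore a description and carry no test. The tumours grew in mammary fat pads of C57BL/6J mice from E0771, a triple-negative breast cancer line of that strain, and were taken at day 22. The induced group (7 tumours) came from Tie2CreER;ERKi mice given tamoxifen before the tumour cells. The control group (5 tumours) came from mice of the same genotype given a control injection. All hosts thus carried a tamoxifen-activated Cre recombinase under the Tie2 promoter and the inducible knock-in gene for endorepellin, the C-terminal fragment of perlecan. Tie2 is a receptor of endothelial cells, and its promoter is known to act in some blood cell lineages as well. Tamoxifen went to the induced mice alone, so an effect of the drug and an effect of endorepellin cannot be told apart. The sources used here give neither the ages of the mice nor whether each tumour came from its own mouse.

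A B cell carries an antigen receptor made of immunoglobulin heavy and light chains, which signals through the partner proteins encoded by Cd79a and Cd79b. A naive mature B cell expresses the mu and delta heavy chains, IgM and IgD. After activation it can switch to a gamma, epsilon or alpha heavy chain and may become a plasma cell, which secretes antibody in large amounts and shuts down surface genes such as Ms4a1. In tumours, B cells and plasma cells are known as part of the immune infiltrate, sometimes in lymphoid aggregates with T cells. In bulk tumour RNA, fewer cells of this lineage and less of its RNA per cell cannot be told apart.

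Sequences of 1 variable segment and 3 promoters are shown for the genes that separated the high tumours from each other. Ighv1-12 is a heavy-chain variable segment (GENCODE M21 on GRCm38, exon at chr12:114615850-114616143, minus strand). It had 0 counts in each of the 7 induced tumours and in control 2 to 5, and 84 counts in control 1. It is shown as the germline reference segment, and the capitals mark its 3′ end, with the codon of the conserved cysteine that precedes the third complementarity-determining region. The promoters are from RefSeq on GRCm38.p6, run from 250 bases before to 50 bases after a RefSeq start site, which can differ from the GENCODE boundary of the gene, and are written on the strand of the gene. Cr2 (chr1:195176670-195176969, minus strand) was highest in control 4 and control 5, Jchain (chr5:88527848-88528147, minus strand) in control 1, and Cd79a (chr7:24897247-24897546, plus strand) encodes a subunit of the antigen receptor complex.
Ighv1-12: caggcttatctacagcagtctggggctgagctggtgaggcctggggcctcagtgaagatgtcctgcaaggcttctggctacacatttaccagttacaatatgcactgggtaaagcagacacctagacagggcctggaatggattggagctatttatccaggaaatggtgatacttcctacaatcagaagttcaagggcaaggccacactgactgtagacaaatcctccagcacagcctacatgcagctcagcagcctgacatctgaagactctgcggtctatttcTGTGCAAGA
Cr2: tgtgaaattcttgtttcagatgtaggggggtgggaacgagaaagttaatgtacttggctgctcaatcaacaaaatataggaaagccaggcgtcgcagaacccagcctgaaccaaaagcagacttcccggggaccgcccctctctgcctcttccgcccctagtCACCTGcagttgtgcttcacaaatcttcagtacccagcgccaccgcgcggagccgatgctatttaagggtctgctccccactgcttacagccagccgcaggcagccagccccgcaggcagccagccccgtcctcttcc
Jchain: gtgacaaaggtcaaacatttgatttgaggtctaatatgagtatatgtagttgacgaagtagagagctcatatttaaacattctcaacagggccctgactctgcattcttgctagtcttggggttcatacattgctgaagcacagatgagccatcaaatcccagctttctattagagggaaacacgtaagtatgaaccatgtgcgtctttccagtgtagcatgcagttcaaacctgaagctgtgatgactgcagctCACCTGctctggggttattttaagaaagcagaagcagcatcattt
Cd79a: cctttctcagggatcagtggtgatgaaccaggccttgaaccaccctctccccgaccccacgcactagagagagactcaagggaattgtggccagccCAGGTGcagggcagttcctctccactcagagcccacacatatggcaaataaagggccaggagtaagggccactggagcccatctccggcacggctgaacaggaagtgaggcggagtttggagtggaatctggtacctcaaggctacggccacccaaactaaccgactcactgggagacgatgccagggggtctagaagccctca
Capitals in the promoters mark the hexamer CAGGTG on either strand, a form of the E box to which the B lineage factor E2A can bind.

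Of the 9 genes, 5 were matched to RefSeq promoters, 7 promoters in all, of which 3 belonged to Fcer2a. The search covered 4 motifs on both strands: CAGGTG, the octamer ATGCAAAT, CCCNNGGG of the EBF1 type and GAGGAAGT of the PU.1 type. Matches had to be exact apart from the N positions, and only CAGGTG was found. Sites that differ from the other motifs by a base were not searched for, so a lack of such sites is not shown. It lay in 5 of the 7 promoters, at least 1 for each of the 5 genes, where 20.2% of 32851 promoters of the same length held it. Its first base lay at position -88 in Cr2, 6 in Jchain, -154 in Cd79a and -69 in Fcrla, counted from the RefSeq start site of each promoter, and at -244 and -99 in 1 of the Fcer2a promoters. Across all promoters, the octamer was found in 1.74%, the EBF1 type in 13.7% and the PU.1 type in 3.20%. These matches describe letters in a window, and binding was not measured.

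Libraries held 18993192 to 28372821 counts, with 21350 to 24087 genes counted at least once. Values below are CPM, counts scaled to a common library size with TMM factors. Control 1 stood apart in other genes as well. The sum of 6 pan-leukocyte genes was 98.1 to 329 CPM in induced tumours, 769 CPM in control 1 and 175 to 254 CPM in the other control tumours. The sum of 6 fibroblast genes was 542 to 1991 CPM in induced tumours, 3206 CPM in control 1 and 661 to 1201 CPM in the other control tumours. Skeletal muscle genes, 6 in number, summed to 14.4 to 419 CPM in induced tumours, 456 CPM in control 4 and 6.41 to 36.0 CPM in the other control tumours. The part of these differences in the results below was not tested. Epithelial markers were low throughout, with 8 keratin and adhesion genes summing to 2.66 to 5.19 CPM in induced and 1.79 to 8.60 CPM in control tumours.

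Ighm (ENSMUSG00000076617, chr12:113418558-113422730, minus strand) encodes the constant region of the IgM heavy chain. It ranged from 1.70 CPM in induced 2 to 6.26 CPM in induced 6, with a median of 3.78 CPM, across the induced tumours. In the control tumours it stood at 33.3 CPM in control 1, 2.66 CPM in control 2, 3.52 CPM in control 3, 16.7 CPM in control 4 and 15.0 CPM in control 5. Control 1, 4 and 5 lay above every induced tumour, and control 2 and 3 lay inside the induced range, so the groups overlapped. The means were 3.99 ± 1.59 CPM in induced tumours (SD, n = 7) and 14.2 ± 12.4 CPM in control tumours (SD, n = 5).

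Igkc (ENSMUSG00000076609, chr6:70726435-70726966, plus strand) encodes the constant region of the kappa light chain, the main light chain of mouse antibodies. Its induced values ran from 0.258 CPM in induced 2 to 3.47 CPM in induced 6, with a median of 0.886 CPM. Its control values were 26.0 CPM in control 1, 0.596 CPM in control 2, 1.07 CPM in control 3, 5.58 CPM in control 4 and 5.61 CPM in control 5. The same 3 control tumours were high, and control 1 alone stood at 29.3 times the induced median, where control 4 and control 5 were at 6.30 and 6.33 times. The groups overlapped through control 2 and control 3. Igkc averaged 1.17 ± 1.06 CPM in induced tumours and 7.77 ± 10.4 CPM in control tumours, so the control spread exceeded the control mean.

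The signalling partners of the receptor split the high tumours. Cd79a (ENSMUSG00000003379, chr7:24897381-24902197, plus strand) encodes Ig-alpha, whose cytoplasmic tail recruits tyrosine kinases. In induced tumours it ranged from 1.13 CPM to 2.92 CPM with a median of 2.43 CPM. In control tumours it was at 1.66, 1.72 and 1.61 CPM in control 1, 2 and 3, and at 6.72 and 6.22 CPM in control 4 and 5. Only control 4 and control 5 exceeded the induced range. Control 1, the tumour with the most Ighm and Igkc, lay at 0.684 times the induced median for Cd79a. The means were 2.21 ± 0.698 CPM in induced tumours and 3.59 ± 2.64 CPM in control tumours (SD, n = 7 and n = 5).

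Cd79b (ENSMUSG00000040592, chr11:106311341-106314762, minus strand) encodes Ig-beta, the other signalling chain. It ran from 0.361 CPM to 1.66 CPM in induced tumours, with a median of 0.923 CPM. Control 1, 4 and 5 held 3.02, 4.63 and 4.24 CPM, and control 2 and 3 held 0.315 and 0.586 CPM. All of the high control tumours lay above the induced range here, and control 2 lay below it. Cd79b averaged 0.987 ± 0.474 CPM in induced tumours and 2.56 ± 2.02 CPM in control tumours.

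**Figure D1:**
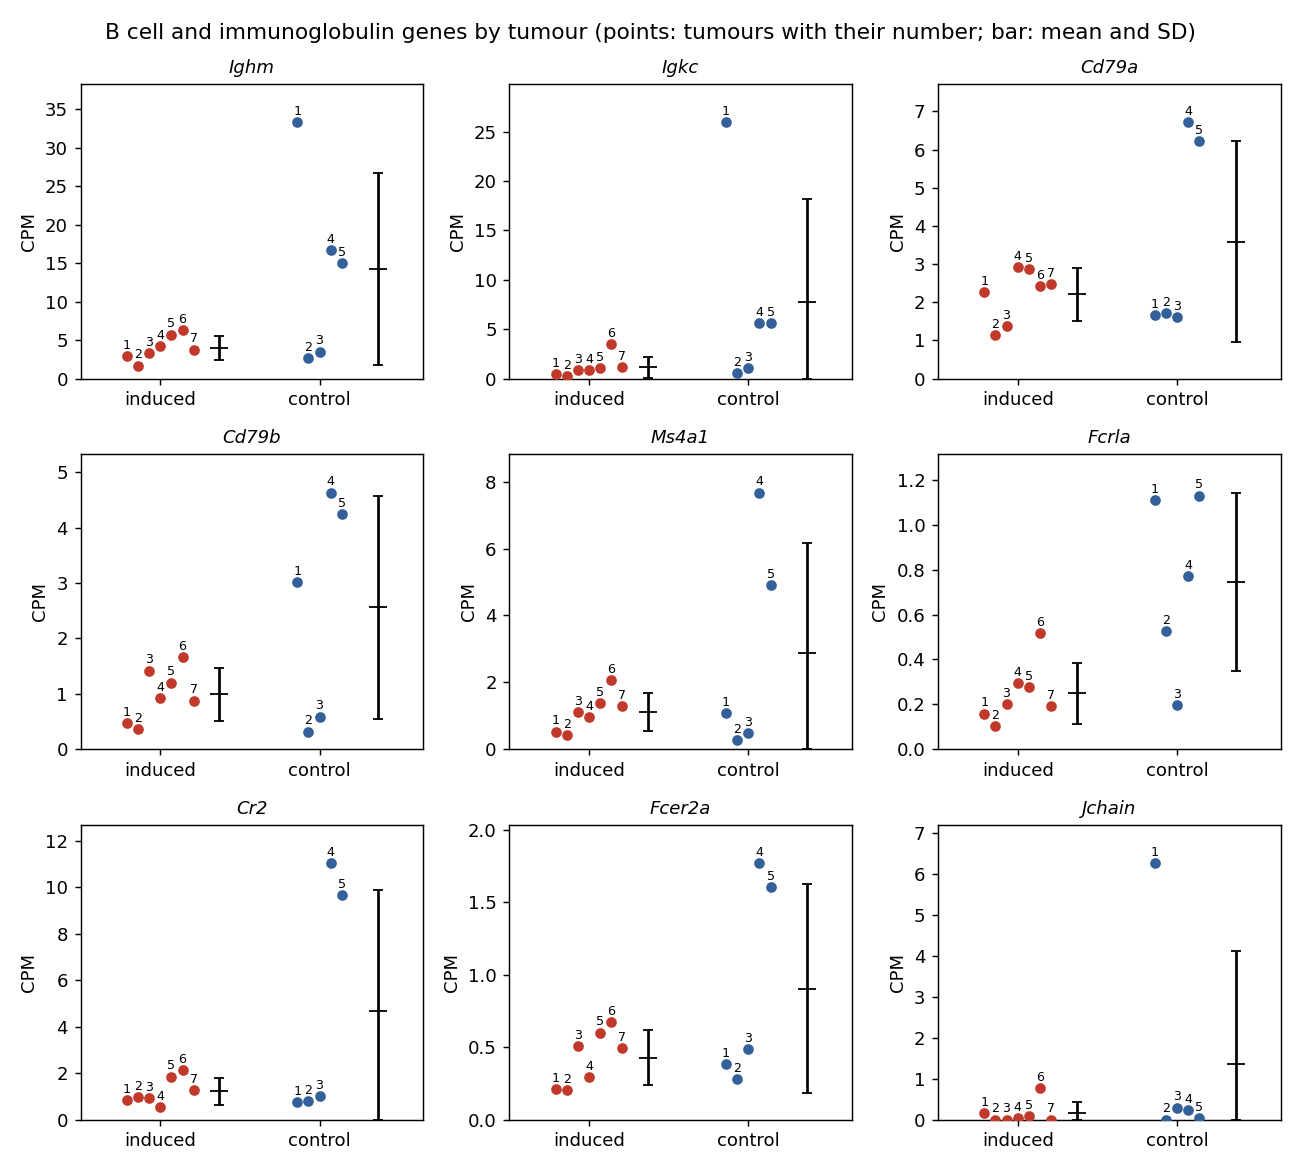
CPM of each of the 9 genes in every tumour, with induced tumours (red, n = 7) left of control tumours (blue, n = 5). Points carry the tumour number, and bars show the mean and SD, with the lower end stopped at 0 where the SD exceeds the mean. Control 4 and control 5 lie above all induced tumours in 8 of the 9 panels, whereas control 1 is the highest tumour for Ighm, Igkc and Jchain and lies among the induced tumours for Cd79a, Ms4a1, Cr2 and Fcer2a.

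The 3 surface genes Ms4a1, Cr2 and Fcer2a were high in control 4 and control 5 and not in control 1. Ms4a1 (ENSMUSG00000024673, chr19:11249675-11266241, minus strand) encodes CD20. It ranged from 0.412 CPM to 2.07 CPM in induced tumours, with a median of 1.11 CPM, and was at 1.07, 0.280, 0.489, 7.67 and 4.90 CPM in control 1 to 5. Cr2 (ENSMUSG00000026616, chr1:195136811-195176716, minus strand) encodes the complement receptors CD21 and CD35, found on mature B cells and follicular dendritic cells. It ranged from 0.554 CPM to 2.12 CPM in induced tumours, with a median of 0.979 CPM, and was at 0.763, 0.806, 1.03, 11.0 and 9.66 CPM in control 1 to 5. Cr2 had the largest excess of control 4 and control 5 among the 8 genes tested, at 11.3 and 9.87 times the induced median, while control 1 was at 0.779 times. Fcer2a (ENSMUSG00000005540, chr8:3681737-3694175, minus strand) encodes CD23, the low-affinity IgE receptor of follicular B cells. It ranged from 0.206 CPM to 0.673 CPM in induced tumours, with a median of 0.496 CPM, and was at 0.381, 0.280, 0.489, 1.77 and 1.60 CPM in control 1 to 5.

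For these 3 surface genes, control 4 and control 5 lay above every induced tumour and the other control tumours lay within the induced range or below it. Ms4a1 averaged 1.11 ± 0.560 CPM in induced and 2.88 ± 3.27 CPM in control tumours. Cr2 averaged 1.22 ± 0.570 CPM in induced and 4.66 ± 5.22 CPM in control tumours, and Fcer2a 0.427 ± 0.189 CPM in induced and 0.905 ± 0.720 CPM in control tumours. Fcer2a rests on few reads, with 4 to 13 counts per induced tumour and 39 and 34 counts in control 4 and control 5.

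Fcrla (ENSMUSG00000038421, chr1:170917576-170927583, minus strand) encodes an intracellular Fc receptor-like protein of B cells. It ranged from 0.103 CPM to 0.517 CPM in induced tumours, with a median of 0.202 CPM, which corresponds to 2 to 10 counts. Control 1 to 5 held 1.11, 0.526, 0.195, 0.772 and 1.13 CPM, with 32, 15, 4, 17 and 24 counts. It was the one gene of the 8 tested for which control 2 also lay above every induced tumour, with 0.517 CPM on 10 counts in induced 6 and 0.526 CPM on 15 counts in control 2. The means were 0.249 ± 0.135 CPM in induced tumours and 0.747 ± 0.398 CPM in control tumours.

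Jchain (ENSMUSG00000067149, chr5:88519809-88527891, minus strand) encodes the chain that joins the units of secreted IgM and IgA and marks antibody-secreting cells. Alone among the 9 genes, it was removed by the filter on low counts. It had 15 counts (0.776 CPM) in induced 6, 0 to 3 counts in the other induced tumours, and 181 counts (6.28 CPM) in control 1. Control 2 to 5 had 0, 6, 5 and 1 counts, so control 4 and control 5, high for the surface genes, were among the low tumours here. A count of 0 allows up to 3 counts, which is 0.155 CPM in induced 2, 0.152 CPM in induced 3, 0.115 CPM in induced 7 and 0.105 CPM in control 2. Control 1 thus held most Jchain reads of the 12 tumours, and induced 6 came next.

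Per kilobase of exon, the 9 genes could be compared with each other. Igkc had the highest mean level, at 2.20 ± 2.00 CPM per kb in induced and 14.6 ± 19.7 CPM per kb in control tumours. Ighm followed at 2.11 ± 0.841 CPM per kb in induced and 7.55 ± 6.60 CPM per kb in control tumours, and Cd79a at 1.52 ± 0.479 and 2.46 ± 1.81 CPM per kb in induced and control tumours. Cd79b was at 0.690 ± 0.331 CPM per kb in induced and 1.79 ± 1.41 CPM per kb in control tumours. The other 5 genes averaged 0.0604 to 0.179 CPM per kb in induced and 0.293 to 0.574 CPM per kb in control tumours. In control tumours the SD of each gene exceeded its distance to the next lower gene, so neighbours in this order were not separated by their spread.

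As a fold change between the groups, all 8 of the genes that passed the filter were lower in induced tumours, and none was called. Fcrla reached 10 counts only in control 1, 2, 4 and 5 and in induced 6, and did not pass the filter when induced 6 was left out. Its place among the genes tested thus rests mostly on the control tumours where it was high. By edgeR's quasi-likelihood test with Benjamini-Hochberg adjustment, 0 of 15199 genes had an adjusted p under 0.05, which is 0%, with a smallest adjusted p of 0.9999. Before adjustment, 324 genes by edgeR and 391 by DESeq2 had a p under 0.05, and DESeq2 also called 0 genes. Since the 9 genes were picked on this contrast, nothing about them is read from these counts. The log2 fold changes, induced minus control, were -2.73 for Igkc (SE 0.81), -1.93 for Cr2 (SE 0.68), -1.83 for Ighm (SE 0.53) and -1.57 for Fcrla (SE 0.46). Those of the remaining genes were -1.37 for Cd79b (SE 0.59), -1.37 for Ms4a1 (SE 0.70), -1.06 for Fcer2a (SE 0.51) and -0.69 for Cd79a (SE 0.42). Their median was -1.47, where the median over all genes tested was -0.001 and 50.2% of genes were lower in induced tumours. The groups overlapped for each of the 9 genes.

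The difference rested on 3 of the 5 control tumours, the ones that led to the choice of these genes. A smaller difference without them was therefore set by that choice, and the fits that leave them out test nothing. Without control 4 and control 5, the median log2 fold change of the 8 genes was -0.12, and 4 of the 8 were lower in induced tumours. The genes then split in direction: Igkc stood at -2.97, Ighm at -1.71, Fcrla at -1.29 and Cd79b at -0.40, whereas Ms4a1 stood at 0.85, Cr2 at 0.50, Cd79a at 0.41 and Fcer2a at 0.17. Without control 1, 4 and 5 the median was 0.41, and Fcrla at -0.55 was the one gene still lower in induced tumours. Single tumours moved the estimates less, with medians of -1.73 to -1.19 when each of the 12 was left out in turn. Control 1 carried the most weight for Igkc, at -1.46 without it, and control 4 for Ms4a1, at -0.60 without it, and for Cr2, at -1.33 without it. In the 8 tumours left after removing control 1, control 2, induced 3 and induced 4, which had the highest fibroblast sums, the median was -1.61.

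**Figure D2:**
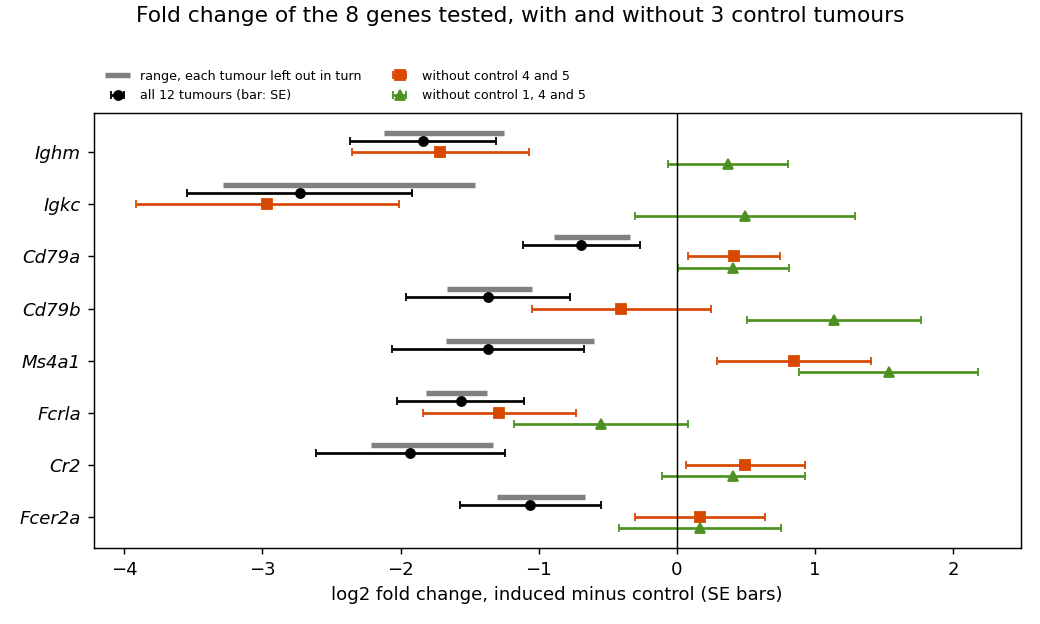
Log2 fold change (induced minus control) of the 8 genes tested, with all 12 tumours (black circles), without control 4 and 5 (orange squares) and without control 1, 4 and 5 (green triangles), with SE bars. Grey lines give the range when each tumour is left out in turn. Every black circle lies below 0, and without control 1, 4 and 5 all genes but Fcrla lie above 0. The genes were picked because these control tumours were high, so the shift was set by that choice.

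Sums of 2 sets of genes, both put together after the values of their genes were seen, set the high control tumours side by side. A sum of 4 genes of mature, unswitched B cells (Cr2, Fcer2a, Ms4a1 and Ighd, the IgD constant region) was 1.80 to 5.74 CPM in the induced tumours. It was 23.4 CPM in control 4 and 19.3 CPM in control 5, and 3.16, 1.68 and 2.35 CPM in control 1, 2 and 3. A sum of 5 genes of switched or secreted antibody (Jchain, Ighg1, Ighg2b, Ighg2c and Igha) was 2.43 CPM in induced 6 and 0 to 0.253 CPM in the other 6 induced tumours. It was 49.0 CPM in control 1, and 0.0701, 1.12, 0.454 and 0.0471 CPM in control 2, 3, 4 and 5. Control 1 was therefore inside the induced range for the mature B cell sum, and control 4 and control 5 were inside the range of the induced tumours for the antibody sum. Other genes of these kinds, also named after their values were seen, did not keep to this split. Cd22, Fcrl1 and Siglecg, surface proteins of B cells, were at 5.37, 1.11 and 1.63 CPM in control 1, where the highest induced tumours held 2.54, 0.738 and 1.34 CPM. Mzb1, a chaperone-associated protein of antibody-secreting cells and also of marginal zone B cells, belongs to both kinds. It was at most 0.305 CPM in induced tumours, and at 0.763, 1.23 and 0.660 CPM in control 1, 4 and 5.

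**Figure D3:**
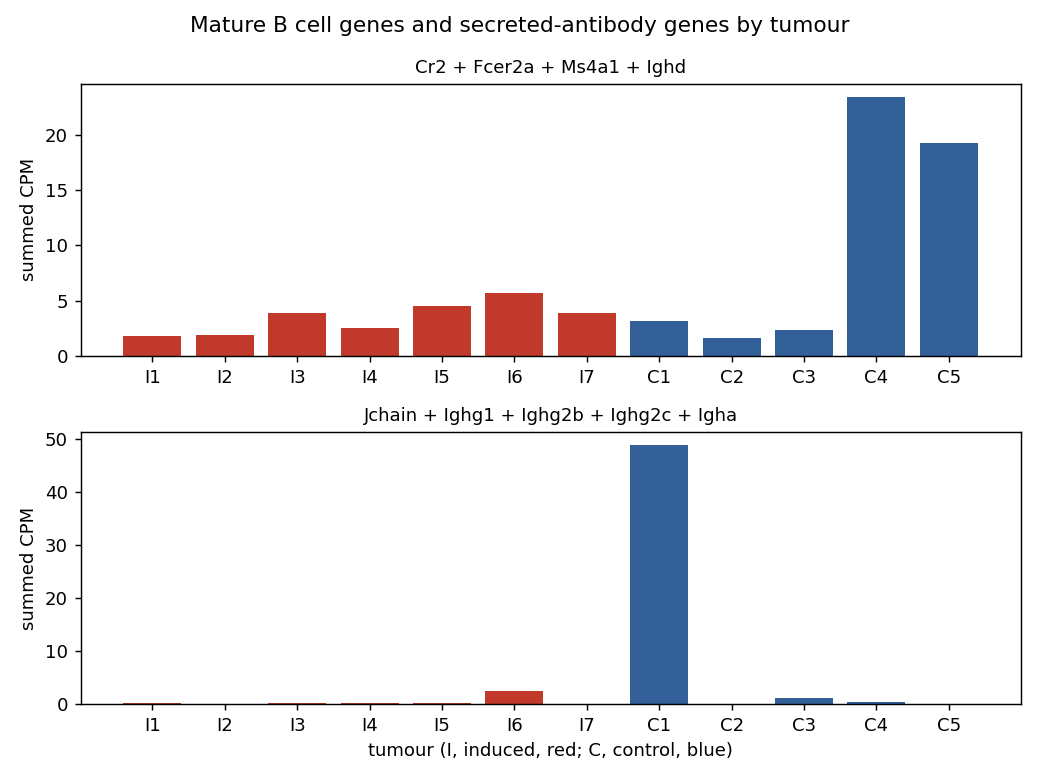
Summed CPM per tumour of Cr2, Fcer2a, Ms4a1 and Ighd (top) and of Jchain, Ighg1, Ighg2b, Ighg2c and Igha (bottom), with induced tumours in red and control tumours in blue. In the top panel induced tumours reach 5.74 CPM and control 4 and control 5 stand at 23.4 and 19.3 CPM, and in the bottom panel induced tumours reach 2.43 CPM and control 1 stands at 49.0 CPM.

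All immunoglobulin genes together were high in the same tumours, but this sum includes Ighm and Igkc and is not separate from the 9 genes. Ighm and Igkc gave 961 and 749 of the 3797 immunoglobulin counts in control 1. They gave 368 and 123 of 735 in control 4, and 318 and 119 of 651 in control 5. The table held 54 immunoglobulin genes: 11 constant, 37 variable, 5 joining and 1 diversity segment. Their share of all counts, here in CPM of total counts without TMM factors, was 3.33 to 14.9 CPM in induced tumours, with induced 6 the highest (exact 95% Clopper-Pearson interval 13.3 to 16.8). Control 1 had 139 CPM (135 to 144), control 4 had 32.4 CPM (30.1 to 34.8) and control 5 had 30.1 CPM (27.8 to 32.5), while control 2 and control 3 had 4.65 and 6.76 CPM. These intervals cover counting error only. Near-identical family members, such as variable segments, Ighg2b with Ighg2c and Iglc2 with Iglc3, may have shared reads, and their single counts are uncertain.

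Heavy-chain isotypes set control 1 apart. Among induced tumours, switched classes made up 18.8% of heavy-chain constant counts in induced 6 (32 of 170 counts, interval 13.2 to 25.5) and 0 to 6.12% in the others, with 0 of 60 counts in induced 1, which allows a share of up to 5.96%. Of the 2225 counts in control 1, 1237 (55.6%, interval 53.5 to 57.7) were switched. Ighg1 had 432, Igha 344, Ighg2c 257, Ighg2b 199 and Ighg3 5 counts there. Ighg1, Ighg2b, Ighg2c and Ighg3 encode IgG heavy chains, and Igha encodes that of IgA, the class of mucosal secretions. In control 4 the switched share was 1.59% (7 of 440 counts, interval 0.642 to 3.25) and in control 5 0.775% (3 of 387 counts, interval 0.160 to 2.25). Control 3 had 18.6% on 97 counts (interval 11.4 to 27.7) and control 2 had 2.30% on 87 counts.

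The share of IgD ran the other way. Ighd made up 6.67% of Ighm plus Ighd counts in induced 1 (interval 1.85 to 16.2), 29.3% in induced 3 (20.3 to 39.8) and values between these in the other induced tumours. It made up 15.0% in control 4 (interval 11.8 to 18.7) and 17.2% in control 5 (13.6 to 21.3), inside that range. In control 1 it made up 2.73% (interval 1.81 to 3.95), the lowest of the 12 tumours. The level of Ighd itself was not low there, at 0.936 CPM, where induced tumours held 0.211 to 1.37 CPM. In control 4 and control 5 it was at 2.95 and 3.11 CPM, above every induced tumour. The kappa share of light-chain constant counts ran from 44.7% in induced 3 (interval 28.6 to 61.7) to 81.8% in induced 1 (48.2 to 97.7), with 79.8% in induced 6 on 84 counts (69.6 to 87.8). The kappa share was 93.4% in control 1 (interval 91.4 to 95.0), 65.4% in control 4 (58.2 to 72.2) and 62.3% in control 5 (55.0 to 69.2), so control 4 and control 5 were inside the induced range and control 1 was above it. Shares in induced tumours other than induced 6 rest on 40 to 142 heavy-chain counts and on 8 to 45 light-chain counts, and their intervals are wide.

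**Figure D4:**
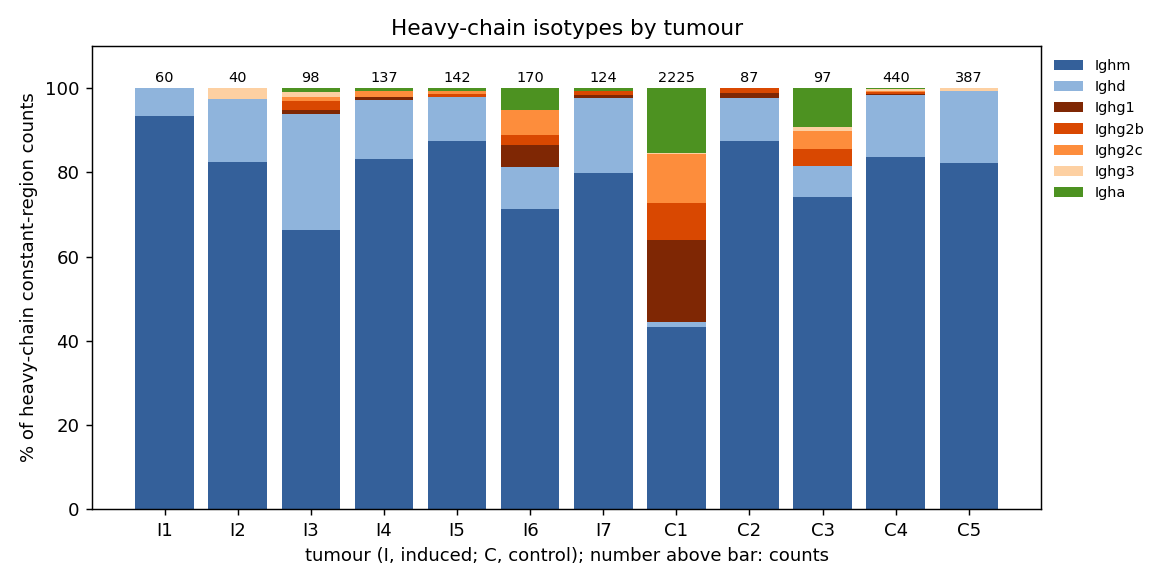
Share of each heavy-chain constant region among all heavy-chain constant counts, in % per tumour, with the number of counts above each bar. IgG and IgA classes (brown, orange and green) make up 18.8% in induced 6, 55.6% in control 1 and 18.6% in control 3, and 1.59% and 0.775% in control 4 and control 5, where Ighm and Ighd (blue) make up the rest.

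Variable segments could be read only for the 37 that were counted in these data. Shares below are of the counts of those segments, and the number of different antibodies cannot be read from them. Induced tumours had 10 to 25 counts over 6 to 18 of 37 segments. Control 1 had 751 counts over 33 segments, control 4 had 94 over 28 and control 5 had 67 over 22. In control 1 the most counted segments were Igkv1-135, a kappa segment, with 122 counts (16.2%, interval 13.7 to 19.1) and Ighv1-12, whose sequence is given above, with 84 counts (11.2%). Igkv1-110, Igkv10-96 and Ighv3-8 followed with 63, 62 and 44 counts. Igkv1-135 had at most 3 counts in any induced tumour and 4 and 3 counts in control 4 and control 5. The number of segments seen rises with the number of counts, so it does not order the tumours by diversity.

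Other B cell genes were taken from lists drawn up with earlier results of these data known. Of 24 further B cell identity genes, 22 were tested, 21 lower and 1 higher in induced tumours, with 0 called and a median log2 fold change of -0.85. The most abundant were not all B cell specific in these tumours. Pax5, the commitment factor of B cells, was at 36.3 to 55.6 CPM in induced and 35.7 to 51.0 CPM in control tumours, with a log2 fold change of 0.02 (SE 0.12), and so did not follow the 9 genes. Cd37, a tetraspanin of leukocytes, differed by -0.24 (SE 0.12). Cd72, a co-receptor that dampens the B cell receptor and is also found on macrophages, was at 10.6 to 36.2 CPM in induced tumours and at 97.2 CPM in control 1. Pou2f2, which encodes the octamer-binding factor Oct-2, differed by -0.49 (SE 0.38).

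Of the genes more restricted to B cells, a pair named after their values were seen stood high in control 1, 4 and 5. Cd22, an inhibitory lectin of B cells, was at 1.11 to 2.54 CPM in induced tumours, and at 5.37, 5.27 and 5.04 CPM in control 1, 4 and 5. Bank1, a scaffold protein of B cells, was at 0.775 to 1.34 CPM in induced tumours, and at 2.81, 3.72 and 3.35 CPM in the same 3 control tumours. Both genes were thus above the induced range in these 3 tumours. Their log2 fold changes were -0.98 (SE 0.39) for Cd22 and -1.19 (SE 0.39) for Bank1. Other genes of the list, also named after their values were seen, were not high in control 1. Cxcr5, Tnfrsf13c and Pou2af1 were at 1.21, 0.797 and 3.92 CPM there, below the induced medians of 2.36, 1.24 and 10.3 CPM. Blk, at 0.797 CPM in control 1, lay inside the induced range of 0.155 to 0.860 CPM.

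Of 16 B cell receptor signalling genes, 16 were lower in induced tumours and 0 were called, with a median of -0.77. The most abundant, Lyn, Syk, Ptpn6 and Fcgr2b, also act in myeloid cells, and control 1 had the highest value of all 12 tumours for each, up to 143 CPM for Lyn. Of the immunoglobulin constant genes, 3 of 11 were tested and 3 were lower, with a median of -1.83. These were Ighm, Igkc and Ighd. Ighm and Igkc are among the 9 genes, and the median is the value of Ighm. The list therefore adds only Ighd, at -1.08 (SE 0.60). Iglc1, Iglc2 and Iglc3, the lambda light chains, were at most 0.207, 0.517 and 0.556 CPM in any induced tumour. They were at 0.499, 1.45 and 0.999 CPM in control 4 and 0.471, 2.03 and 0.895 CPM in control 5. Control 1 held 0.693, 0.451 and 0.693 CPM, so Iglc1 and Iglc3 were above the induced range there too. Ighe and Iglc4 were not analysed here.

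Plasma cell genes did not move as a list. Of 14 such genes, 10 were tested, 5 higher and 5 lower in induced tumours, with a median of 0.00. The filter removed Jchain, Mzb1, Tnfrsf17 and Derl3, so the median does not cover them and says little about plasma cells. The most abundant were Sdc1, Edem1, Txndc5 and Xbp1. Sdc1, a heparan sulphate proteoglycan of plasma cells and epithelia, was at 346 to 499 CPM in induced and 379 to 425 CPM in control tumours. Xbp1, a regulator of the secretory machinery, was at 75.1 to 121 CPM in induced and 90.8 to 119 CPM in control tumours. Edem1, which acts in the clearance of misfolded glycoproteins, was at 153 to 197 CPM in induced tumours and at 133 CPM in control 4 to 227 CPM in control 1. Irf4, a transcription factor of plasma cells and activated lymphocytes, named after its values were seen, was at 0.153 to 0.983 CPM in induced tumours, and at 3.61 CPM in control 1, 1.27 CPM in control 4 and 0.801 CPM in control 5. Germinal centre genes had 4 of 8 tested, 1 higher and 3 lower, with a median of -0.02.

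Genes of lymphoid stroma had 6 of 10 tested, 2 higher and 4 lower in induced tumours, with a median of -0.51. Cxcl13, a chemokine that attracts B cells to follicles and another gene named after its values were seen, was at 0 to 0.812 CPM in induced tumours, and at 3.68 CPM in control 1, 0.736 CPM in control 2 and 0.318 CPM or less in control 3, 4 and 5. Ltb, a lymphotoxin subunit needed for lymphoid tissue, was at 0.534 to 1.86 CPM in induced tumours, and at 5.75, 2.00 and 2.12 CPM in control 1, 4 and 5. Ccl19, Ccl21a, Madcam1 and Glycam1 were not analysed here.

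The summed levels of T cell, MHC class II and macrophage markers were high in control 1 and not in control 4 or control 5. The sum of neutrophil markers was above the induced tumours in all of these. The summed level of 15 T cell genes was 5.06 to 31.9 CPM in induced tumours, 91.0 CPM in control 1, 12.4 CPM in control 4 and 9.66 CPM in control 5. The 10 MHC class II genes summed to 52.8 to 184 CPM in induced tumours, 718 CPM in control 1, 139 CPM in control 4 and 125 CPM in control 5. The 9 macrophage genes summed to 159 to 786 CPM in induced tumours, 1453 CPM in control 1, 238 CPM in control 4 and 294 CPM in control 5. In control 4 and control 5 these 3 sums, like that of the pan-leukocyte genes, lay within the induced range. The 8 neutrophil genes summed to 14.3 to 35.1 CPM in induced tumours, and to 68.0, 185, 16.0, 37.9 and 47.4 CPM in control 1 to 5, so they were above every induced tumour in the 3 control tumours high for the 9 genes and highest in control 2, which was not. The T cell sum was next highest in induced 6 at 31.9 CPM and in control 3 at 22.0 CPM, the 2 tumours that followed control 1 in the switched share of heavy chains. The part of these cell types in the B cell results was not tested. No gene of these lists was called, with 7 of 7 T cell genes, 9 of 9 MHC class II genes and 8 of 9 macrophage genes lower in induced tumours, at medians of -0.79, -1.12 and -0.59, and 6 of 7 neutrophil genes lower, at a median of -1.95.

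**Figure D5:**
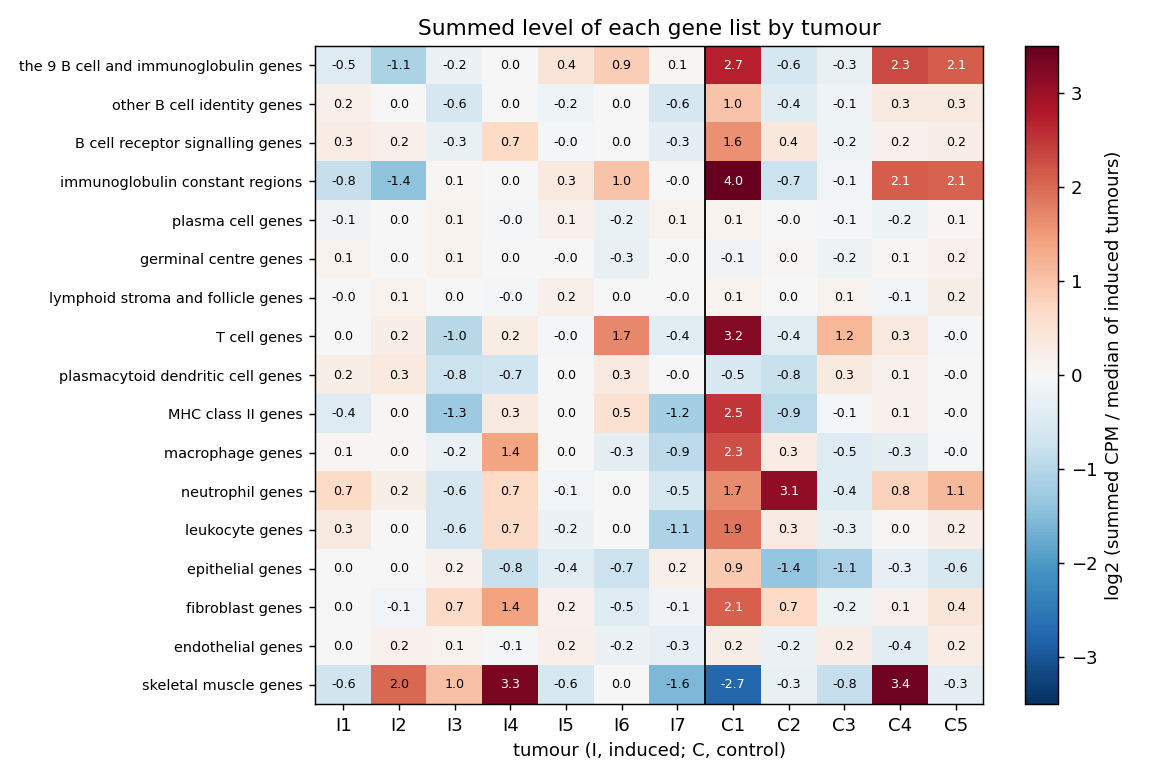
Summed CPM of each gene list per tumour over the median of the induced tumours, on the log2 scale (0 is the induced median; I, induced; C, control). The 9 genes are high in C1, C4 and C5, T cell, MHC class II, macrophage and leukocyte genes are high in C1 among these 3, neutrophil genes are highest in C2 and above 0 in C1, C4 and C5, and skeletal muscle genes are high in C4 and I4.

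Among all genes, those most like the 9 across the 12 tumours were B cell genes as well. Likeness was the root mean square difference of log2 CPM, after centring each gene, from the mean profile of the 8 genes that passed the filter, over 15038 genes. Among the 10 nearest were H2-Ob (0.25), Blk (0.39), Ly6d (0.40), H2-DMb2 (0.42), Siglecg (0.45), Spib (0.47), Ighd (0.49), Dtx1 (0.49) and Ralgps2 (0.53), where the median over all genes compared was 1.04. H2-Ob encodes the beta chain of H2-O, an MHC class II chaperone-like protein of B cells. It averaged 0.78 ± 0.36 CPM in induced and 2.00 ± 1.64 CPM in control tumours. Blk is a Src-family kinase of B cells, and Spib an Ets transcription factor of B cells and plasmacytoid dendritic cells. Genes that vary little over tumours lie close to any flat profile, so a small difference describes the pattern and no more.

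The genes also differed among themselves. The nearest pairs were Cd79a with Fcer2a (0.48), Cd79b with Ms4a1 (0.52) and Ighm with Cd79b (0.54), and the farthest were Igkc with Cr2 (1.60) and Igkc with Cd79a (1.52). When Cr2 alone served as the profile, a choice made after the values were seen, Dtx1, Blk, Ly6d and Ighd were among the 5 nearest, these 4 at 0.72 to 0.81 where the median was 1.33. With Igkc alone, the 5 nearest were Irf4, Ikzf3, Cd2, Cmah and Spib, at 0.92 to 1.02 where the median was 1.72. Irf4 and Ikzf3 are transcription factors of activated lymphocytes and plasma cells, and Cd2 is an adhesion receptor of T cells.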

How the data were processed

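Bulk RNA-seq counts of 12 tumours were used. Per the labels' protocols, 1.3 ug of column-purified total RNA entered a SMARTER mRNA-seq kit. Per the submitters' processing notes the build was GRCm38 (mm10). The aligner, counter and strand setting were not given in the sources used here; reads of antisense partners cannot be told apart. The growth and treatment text in the labels describes fat cell differentiation of another line, so groups came from title and treatment label. The authors deposited, per the file headers, raw counts for each gene. Their rlog values (log2), log2 fold changes, signed fold score and p-values, also deposited by the authors, were not used.

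The 9 genes and all lists were chosen with earlier results of these data known. The genes named were the 9, up to 4 of highest mean CPM per list, immunoglobulin constant genes and the 10 nearest by likeness. Others are said to be chosen after their values were seen. Some genes under these rules are not reported here.

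Counts were fitted with edgeR 4.0.16 (R 4.3.3): filterByExpr with minimum count 10 (15199 of 25116 rows kept), TMM, robust quasi-likelihood F test, two-sided, Benjamini-Hochberg over all genes, threshold 0.05. The fit was checked on simulated counts. CPM used TMM library sizes, and log2 CPM a prior count of 2. A total of 248 rows had no symbol and 25 had dates as symbols, and 189 symbols were filled from the reference. Within a group, every pair of libraries differed by more than sampling noise (chi-square per gene 13.3 to 213.8), so each was counted once. P-values set the difference between the groups against the spread between tumours within them. They take the tumours as independent, which the sources used here do not state. Positions are from GENCODE M21, in which no exon of the 9 genes overlapped an exon of another gene. Alternatives were other size factors and filters, DESeq2 1.42.0, no robust estimation, a replicate block and each tumour left out; fits without sets of tumours were added after the data were seen.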

Additional observations from a re-analysis of the deposited data

Results flagged for a closer look

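Single tumours stood far from the rest of their group, by Dixon's gap over range, in 41 of 154 groups of values examined. Many of these genes were picked because control tumours stood out in them. The tally is therefore a description and no test, and there is no chance rate to set it against. Of the 41, control 1 accounts for 25 and induced 6 for 9. Many of these values are of genes that move together, so they are not separate observations.

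Induced 6 stood apart from the other induced tumours, with Igkc at 3.47 CPM, Jchain at 0.776 CPM, Ighg1 at 0.466 CPM, Ighg2c at 0.517 CPM, Igha at 0.466 CPM, Cd8a at 2.17 CPM and T cell genes at a sum of 31.9 CPM. Xbp1 at 75.1 CPM and the germinal centre sum at 103 CPM were low there. In induced 4, macrophage genes summed to 786 CPM and skeletal muscle genes to 419 CPM, and Cd37 at 21.3 CPM, Tnfsf13 at 1.96 CPM and Cxcl13 at 0.812 CPM were high. Iglc3 was high in induced 3 at 0.556 CPM.

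In control 1, antibody genes were at 26.0 CPM for Igkc, 6.28 CPM for Jchain, 15.0 CPM for Ighg1, 6.90 CPM for Ighg2b, 8.91 CPM for Ighg2c and 11.9 CPM for Igha, and immunoglobulin genes were at 139 CPM of total counts. Genes shared with other leukocytes stood out there too, with Cd72 at 97.2 CPM, Lyn at 143 CPM, Syk at 69.9 CPM, Ptpn6 at 95.6 CPM, Ltb at 5.75 CPM and Tnfsf13, which encodes the plasma cell survival factor APRIL, at 3.43 CPM. So did T cell genes and genes of lymphoid tissue, with Cd4 at 5.20 CPM, Cd8a at 10.6 CPM, the homing receptor Ccr7 at 11.7 CPM, Irf4 at 3.61 CPM and Cxcl13 at 3.68 CPM. Its summed levels stood out for B cell receptor signalling genes (734 CPM), immunoglobulin constant regions (105 CPM), T cell genes (91.0 CPM), MHC class II genes (718 CPM), macrophage genes (1453 CPM), leukocyte genes (769 CPM) and fibroblast genes (3206 CPM). In control 4, skeletal muscle genes summed to 456 CPM.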

How the results depend on the processing

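The count of genes past the threshold was 0 under each of the 23 alternatives. The median log2 fold change of the 8 genes tested, -1.47 with all tumours, was -1.47 to -1.49 with other size factors or DESeq2, -1.62 with a filter of 1 CPM (6 of the genes), -1.57 with no filter (9 of them), and -1.73 to -1.19 when each tumour was left out in turn. Left-out ranges by gene were -2.12 to -1.25 for Ighm, -3.28 to -1.46 for Igkc, -0.89 to -0.34 for Cd79a, -1.67 to -1.05 for Cd79b, -1.67 to -0.60 for Ms4a1, -1.81 to -1.37 for Fcrla, -2.22 to -1.33 for Cr2 and -1.30 to -0.67 for Fcer2a. In alternatives added after the data were seen, the median moved to -0.12 without control 4 and control 5 and to 0.41 without control 1, 4 and 5, and the direction of 4 and 7 of the 8 genes then turned. Without all 3, Ighm was at 0.37, Igkc at 0.49, Cd79a at 0.41, Cd79b at 1.14, Ms4a1 at 1.54, Fcrla at -0.55, Cr2 at 0.41 and Fcer2a at 0.17. Fewer samples remain in these fits by construction, and the tumours left out are those that led to the choice of the genes. With TMM size in place of total counts, the immunoglobulin share of control 1 was 132 CPM.

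The replicate numbers did not pair the tumours: same-numbered induced and control tumours had deviations correlated at -0.313, -0.507, -0.512, -0.531 and 0.21, and 0 of 5 matched its own number best. With a replicate block on the 10 tumours numbered 1 to 5, 0 genes were called and the median of 7 genes was -1.19, and without the block it was -1.70.

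Depth limits Jchain, Fcrla, Fcer2a and the switched isotypes, which had under 20 counts in most tumours.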

Other observations

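Markers of further cell types gave no called gene. Of 10 plasmacytoid dendritic cell genes, 8 were tested, 3 higher and 5 lower in induced tumours, with a median log2 fold change of -0.41 and sums of 651 to 1398 CPM in induced and 639 to 1383 CPM in control tumours. Most of each sum was Bst2, at 401 to 941 CPM in induced and 401 to 1007 CPM in control tumours. Siglech, named after its values were seen, was at 0.101 to 1.33 CPM in induced tumours. It was at 5.24 CPM in control 1 and 0.318 to 1.22 CPM in the other control tumours. Of 8 neutrophil genes, 7 were tested, 1 higher and 6 lower, with a median of -1.95, and the sum was at most 35.1 CPM in induced tumours, and was 68.0, 185, 37.9 and 47.4 CPM in control 1, 2, 4 and 5. Leukocyte and fibroblast genes were lower for 6 of 6 tested each, with medians of -0.84 and -1.01. Endothelial genes had 2 higher and 4 lower with a median of -0.04, skeletal muscle genes 2 higher and 4 lower with a median of -0.21, and epithelial genes 2 higher and 1 lower with a median of 0.06.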
